A study of Mus musculus with 2 samples.

Results

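Imprinted genes are read mainly or only from the copy inherited from 1 parent. The genes described here are 42 mouse genes listed by name from known imprinted clusters, and all 42 were found among the 55536 annotated genes of the deposited tables. No level or ratio entered the rule that listed them, but the list was made with earlier results of these data known. By textbook knowledge 16 of the 42 are expressed from the maternal copy and 22 from the paternal copy, and in the other 4 (Gnas, H13, Blcap and Inpp5f) the parental copy in use depends on the transcript. Total RNA of the adrenal gland was sequenced from 2 female B6CASTF1/J mice, an F1 hybrid of the B6 and Cast strains, aged 8 to 10 months. The labels name no treatment and no altered allele. Replicate 2 is animal 3 and replicate 1 is animal 1, and the labels give both the same donor code, so they were taken as separate animals on their animal numbers alone. They form 1 group with 1 library per animal, so the ratio of replicate 2 over replicate 1 shows only the spread between 2 libraries. Differences of animal, dissection and library preparation cannot be told apart in it, also where it is called a difference between the animals. With 1 library on each side no p-value was computed. The tables hold no allelic counts, so the parental copy that was read was not measured, and "maternally expressed" and "paternally expressed" below are names of known classes.

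Most imprinted genes lie in clusters in which DNA methylation laid down in 1 parental germ line marks an imprinting control region. The mark is kept through the early embryo by zinc finger proteins such as Zfp57 and Zfp445, and decides which copy of a protein-coding gene, and of a long noncoding RNA beside it, is expressed. Many paternally expressed genes promote growth of the fetus and many maternally expressed genes restrain it, and several clusters fall silent in most tissues after birth. In the adrenal gland, CDKN1C and IGF2 are known for their part in human overgrowth with adrenocortical tumours, DLK1 marks undifferentiated cells in rat and human adrenals, and Gs-alpha, a product of Gnas, passes the signal of the corticotropin receptor on to adenylyl cyclase.

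The libraries held 34319787 expected counts in replicate 2 and 40453707 in replicate 1, and the 42 genes took 0.587% of them in replicate 2 (95% Wilson interval 0.585% to 0.590%) and 0.557% in replicate 1 (0.555% to 0.559%). Intervals of this kind cover counting error only. The deposited level is TPM, a share of all transcripts that is per length and may be set between genes. Unless said otherwise it comes from the alignment-based tables, in which reads were assigned from alignments to transcripts. A second, index-based set of tables was made from the same reads with a transcript index. Of the 42 genes, 32 reached 1 TPM in both libraries, beside 54.5% of the 22028 protein-coding genes and 23.8% of all genes. At 10 TPM in both there were 25, and 6 reached 100 TPM in both. The median level of the 42 genes was 13.1 ± 0.15 TPM (SD of the medians of the libraries, n = 2), and over protein-coding genes it was 2.18 TPM in replicate 2 and 2.02 TPM in replicate 1. Summed TPM of the 42 genes was 2832 in replicate 2 and 2636 in replicate 1. The sum was uneven: the 5 highest genes held 74.5% of it and the 3 highest 55.8%.

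**Figure D1:**
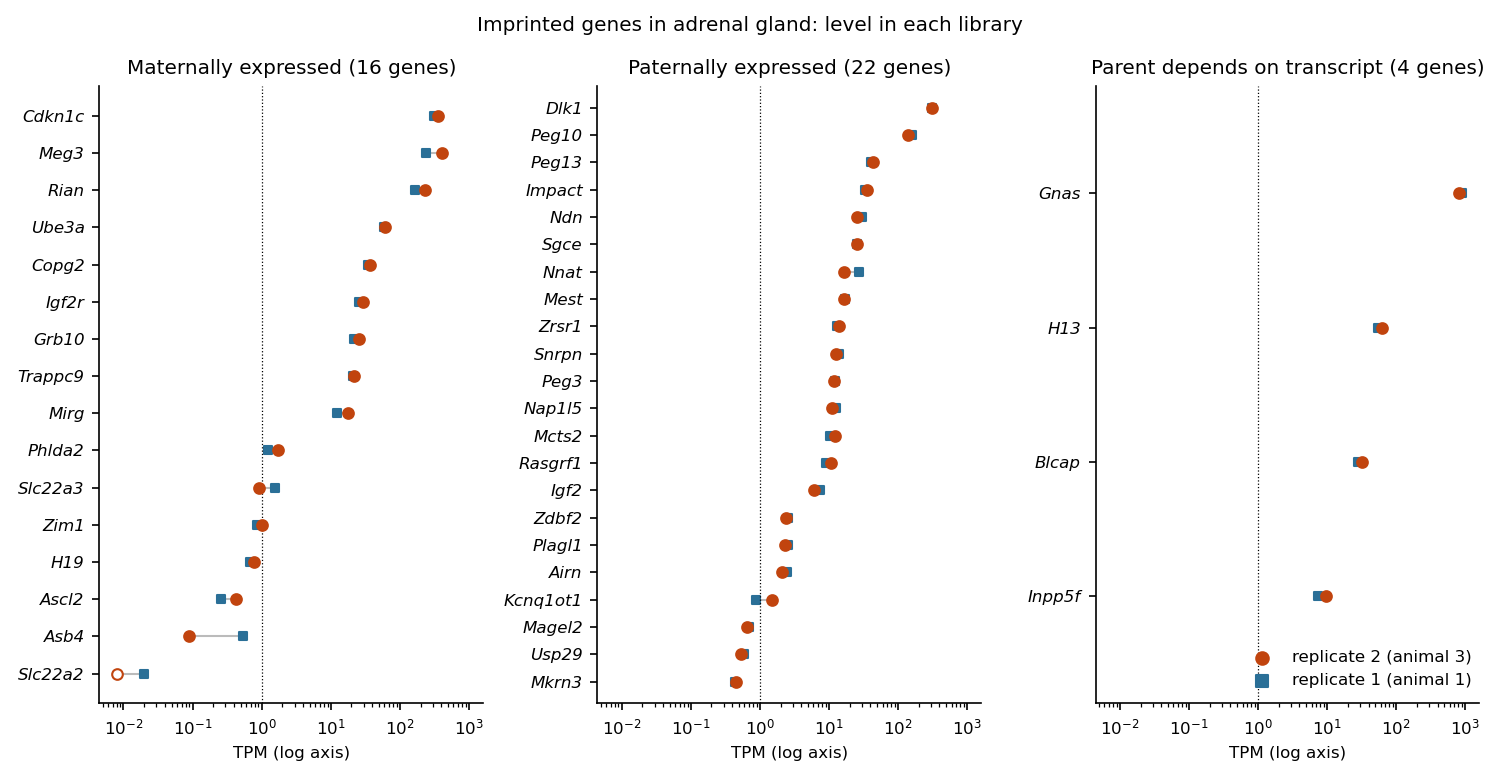
Level of each of the 42 imprinted genes in TPM on a log axis, with replicate 2 as red circles and replicate 1 as blue squares, in panels by the parental copy known to be expressed. The dotted line is 1 TPM, and the open circle is Slc22a2, listed at 0 in replicate 2 and drawn at the left edge. Gnas is highest, at 812 and 904 TPM in replicates 2 and 1, and the pair of points lies close together for most genes, while Meg3, Rian, Nnat, Slc22a3, Kcnq1ot1 and Asb4 lie visibly apart.

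The highest of the 42 was Gnas, which encodes the stimulatory G protein alpha subunit and other products. It had 812 TPM in replicate 2 and 904 TPM in replicate 1 (858 ± 65 TPM, SD, n = 2), and held rank 52 among all genes and rank 27 among protein-coding genes by mean TPM. Below it stood Cdkn1c, an inhibitor of cyclin-dependent kinases, with 364 and 318 TPM in replicates 2 and 1, then the noncoding RNA Meg3 with 412 and 242 TPM, and Dlk1, a membrane protein related to Notch ligands, with 310 and 309 TPM. The range of Meg3 over the animals took in the values of both Cdkn1c and Dlk1, so the order of these 3 is not fixed by their means. Rian, the host of many small nucleolar RNAs, had 236 and 165 TPM in replicates 2 and 1. Peg10, a gene derived from a retrotransposon, had 141 and 162 TPM. Rian and Peg10 were apart from each other and from the 4 above them in both animals.

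The next 6 were lower by a wide step. Ube3a, a ubiquitin ligase, had 61.9 and 59.1 TPM in replicates 2 and 1, and H13, a signal peptide peptidase, had 63.1 and 55.8 TPM. Peg13, a noncoding RNA within Trappc9, had 43.4 and 41.1 TPM. Copg2, a coat protein of transport vesicles, had 37.6 and 34.2 TPM. Impact, a regulator of the kinase Gcn2, had 36.3 and 33.8 TPM, and Blcap, a small membrane protein, had 32.1 and 27.9 TPM. Ube3a and H13 overlapped in range, as did Copg2 and Impact, and over the whole list 23 of the neighbouring pairs in the order overlapped.

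Genes of the maternally expressed class had a median of 18.2 TPM and genes of the paternally expressed class a median of 12.01 TPM, from the means of both libraries. The range of the maternally expressed class was wider, from 0.01 TPM for Slc22a2 to 341 TPM for Cdkn1c, against 0.45 TPM for Mkrn3 to 310 TPM for Dlk1 in the paternally expressed class. Of the 16 maternally expressed genes, 10 reached 1 TPM in both libraries, and of the 22 paternally expressed genes 18 did. The difference of the class medians of log2(TPM + 1), maternal minus paternal, was 0.66 in replicate 2 and 0.35 in replicate 1 (0.50 ± 0.22, SD, n = 2). Without the genes whose imprint is known only in some tissues or transcripts, which left 7 maternally and 21 paternally expressed genes, the difference was 1.09 ± 0.14. That larger value rests on few genes, since 3 of the 7 are neighbours in the Dlk1-Meg3 cluster. Left out on the maternal side were Ube3a, Copg2, Grb10, Trappc9, Slc22a3, Zim1, Ascl2, Asb4 and Slc22a2, and on the paternal side Rasgrf1.

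The Dlk1-Meg3 cluster on chromosome 12 held 4 of the 42 genes and 3 of the 5 highest. Dlk1 (chr12:109452823-109463336, plus strand, mm10) is paternally expressed. Meg3 (chr12:109541001-109571726), Rian (chr12:109603940-109661716) and Mirg (chr12:109729764-109749460) lie on the same strand downstream and are maternally expressed noncoding RNAs, hosts of small nucleolar RNAs and microRNAs. The promoters of Meg3 and Dlk1 were picked after values were seen, as Meg3 lay apart in TPM between the animals and Dlk1 lay level. Both are reference sequence, the same for both animals, so they carry no information on a difference between the animals. Each is a window of 300 bases over the start of the gene from RefSeq (GRCm38.p6, the assembly of mm10), plus strand, at chr12:109540746-109541045 for Meg3 and at chr12:109452573-109452872 for Dlk1. In the Meg3 window capitals mark a cAMP response element (TGACGTCA, the same on both strands) and a TATA box (TATAAA, searched on the strand of the gene). A second RefSeq window of Meg3, at chr12:109545148-109545447, holds neither of them and is not shown. In the Dlk1 window, which holds neither, capitals mark the 9 CG dinucleotides.
Meg3 promoter: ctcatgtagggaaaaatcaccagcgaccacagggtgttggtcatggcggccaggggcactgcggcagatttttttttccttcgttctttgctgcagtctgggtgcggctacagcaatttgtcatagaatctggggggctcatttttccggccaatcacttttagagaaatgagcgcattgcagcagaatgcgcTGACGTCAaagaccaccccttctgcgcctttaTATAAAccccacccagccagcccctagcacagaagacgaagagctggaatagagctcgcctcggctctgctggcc
Dlk1 promoter: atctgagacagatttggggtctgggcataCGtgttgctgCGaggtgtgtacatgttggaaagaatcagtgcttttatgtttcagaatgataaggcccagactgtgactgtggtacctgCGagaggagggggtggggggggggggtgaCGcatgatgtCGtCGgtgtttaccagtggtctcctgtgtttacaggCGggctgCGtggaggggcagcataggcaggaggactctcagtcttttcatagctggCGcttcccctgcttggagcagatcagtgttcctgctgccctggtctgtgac
The cAMP response element is the binding site known for the factor Creb, which acts downstream of Gs-alpha. Its letters were found in 4 of 50 windows of the listed genes, those of Meg3, Peg3, Usp29 and Zdbf2, and in 1.79% of all 32851 promoter windows. The windows of Peg3 and Usp29 overlap and hold the same element. The letters include a CG, and the windows of the listed genes have more CG dinucleotides than all windows, so the shares are not like for like. A match describes the letters of the window and no binding.

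Meg3 had 412 TPM (24599 expected counts) in replicate 2 and 242 TPM (16403 expected counts) in replicate 1. Rian had 11443 and 8977 expected counts, and Mirg had 17.8 and 12.3 TPM (965 and 742 expected counts) in replicates 2 and 1. All 3 maternally expressed RNAs were higher in replicate 2, with log2 ratios of replicate 2 over replicate 1 of 0.73 for Meg3, 0.49 for Rian and 0.52 for Mirg after TMM scaling, which sets the libraries to a common size by a trimmed mean over genes. The deposited TPM bounds, which give the error of estimation within 1 library, did not overlap between the animals for any of the 3, as was the case for 27.4% of all genes that averaged at least 100 expected counts. Dlk1 had a log2 ratio of -0.13, and its TPM bounds overlapped. Within a library, Meg3 stood at 1.33 times the TPM of Dlk1 in replicate 2 and at 0.785 times in replicate 1. The order of the 2 genes therefore differed between the animals, and it also did so in the index-based tables, where the ratio was 1.20 in replicate 2 and 0.684 in replicate 1.

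The same direction was seen along the whole strand of Meg3. From Meg3 to Mirg, 6 noncoding genes of that strand averaged at least 10 expected counts, and all 6 had log2 ratios above 0, between 0.49 and 1.21, while 49% of all genes at that count lay above 0. Besides the listed genes they were Gm26945, with 246 and 143 expected counts in replicates 2 and 1, Gm37899, with 728 and 349, and B830012L14Rik, with 250 and 119. Gm26945 lies within Rian on the same strand. Rtl1, a retrotransposon-derived gene on the opposite strand that is paternally expressed, had 1.10 and 1.08 TPM in replicates 2 and 1. These 6 genes share a strand and may share a primary transcript, so they are not 6 independent measurements.

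**Figure D2:**
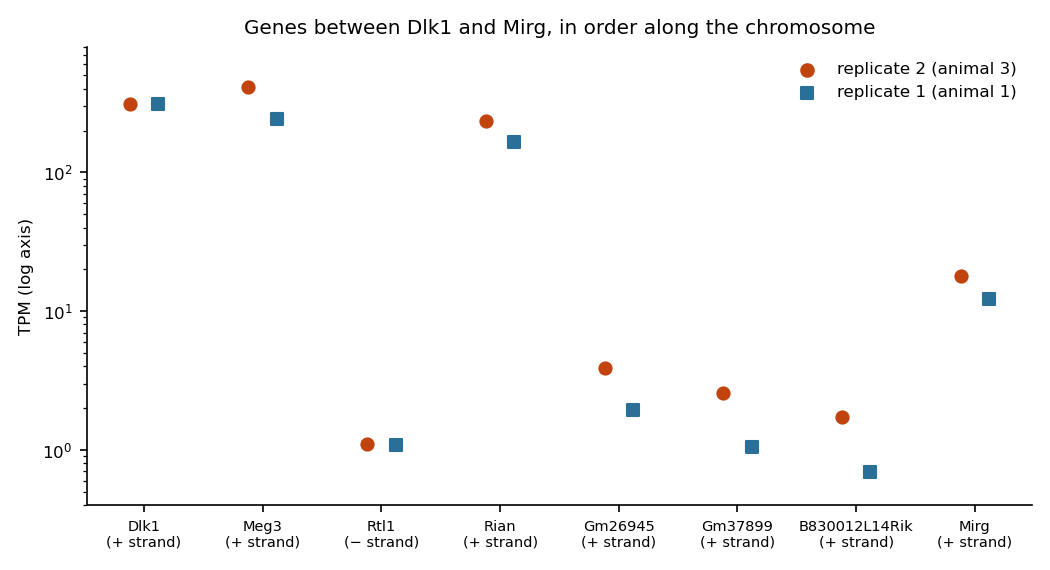
TPM on a log axis of the genes from Dlk1 to Mirg that averaged at least 10 expected counts, in their order along chromosome 12, with replicate 2 as red circles left of replicate 1 as blue squares. Meg3, Rian, Gm26945, Gm37899, B830012L14Rik and Mirg are all higher in replicate 2, while the points of Dlk1 (310 and 309 TPM) and Rtl1 (1.10 and 1.08 TPM) lie level.

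Among 431 lincRNA genes that averaged at least 10 expected counts, 283 had log2 ratios above 0, with a median of 0.22, beside a median of -0.0070 over all 17751 genes at that count. Neat1, the scaffold of paraspeckles, had 210 and 105 TPM in replicates 2 and 1, and Malat1, an RNA of nuclear speckles, had 6213 and 3826 TPM. Of the 8 nuclear noncoding RNAs listed outside the clusters, 5 lay above 0 and 3 below in log2 ratio. Rn7sk (-0.11), Gm26917 (-0.18) and Miat (-0.22) were the 3 below, and Rn7sk and Gm26917 were the most abundant of the 8. Annotated transcripts of the 42 genes that retain an intron summed to 51.9 TPM in replicate 2 and 34.9 TPM in replicate 1, with 22 of 34 higher in replicate 2 and 8 higher in replicate 1. Of all genes that averaged at least 10 expected counts, 62.8% had higher TPM in replicate 2, but that share is of genes and not of transcripts. Coding transcripts of the 42 genes summed to 2012 TPM in replicate 2 and 2090 TPM in replicate 1. Of these 140 transcripts, 59 were higher in replicate 2 and 51 higher in replicate 1. The part of a general difference in nuclear RNA in the ratios of Meg3, Rian and Mirg was not tested.

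The interval from Dlk1 to Mirg also held 66 microRNA genes and 23 small nucleolar RNA genes of the annotation, which these libraries measured hardly at all. The effective length of 58 of the microRNA genes and of all 23 small nucleolar RNA genes was 0 in the alignment-based tables, so their TPM is 0 by construction. Over all 66 microRNA genes the expected counts were 6 in replicate 2 and 4 in replicate 1. RefSeq places 57 hairpins and 111 different mature microRNAs there, with 102 seeds, the bases 2 to 8 that pair with a target. Mirg spans 14 of the hairpins, Rian 3 and Meg3 1. Only 9 seeds were shared by more than 1 microRNA of the interval. Of the sequences below, the first 3 pairs each share a seed within the cluster, miR-127-3p is among the microRNAs known to cleave the Rtl1 transcript, and miR-335-5p and miR-675-5p come from the hosts Mest and H19. The 7 from the cluster lie on the plus strand from chr12:109592888-109592909 (miR-127-3p) to chr12:109743729-109743749 (miR-410-5p, within Mirg), miR-335-5p lies at chr6:30741314-30741336 on the plus strand and miR-675-5p at chr7:142577112-142577133 on the minus strand (GRCm38.p6). Seeds are in capitals.
miR-379-5p: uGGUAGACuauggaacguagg
miR-1193-5p: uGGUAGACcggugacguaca
miR-379-3p: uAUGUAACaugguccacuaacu
miR-411-3p: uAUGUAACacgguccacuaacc
miR-410-5p: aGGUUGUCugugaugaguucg
miR-494-5p: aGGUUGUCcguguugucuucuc
miR-127-3p: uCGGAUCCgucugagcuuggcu
miR-335-5p: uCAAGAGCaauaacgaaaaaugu
miR-675-5p: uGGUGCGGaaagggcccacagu
Of these, miR-410-5p, miR-335-5p and miR-675-5p lie within a listed host gene, and the other 6 lie outside the listed genes, with miR-127-3p within Rtl1 on the opposite strand. No level of any mature microRNA was measured here.

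Gnas (chr2:174284320-174346744, plus strand, mm10) has several first exons with different imprints. Transcripts from the Nesp exon are known as maternal, those from the Gnasxl exon and exon 1A as paternal, and Gs-alpha as expressed from both copies in most tissues and mainly from the maternal copy in a few. Its 24 annotated transcripts were grouped by their starts. In the alignment-based tables transcripts of the Gs-alpha exon held 92.2% of Gnas TPM in replicate 2 and 93.0% in replicate 1, at 749 and 841 TPM. Nesp held 3.35% and 2.79%, exon 1A 1.95% and 1.98%, and Gnasxl 0.181% and 0.124% in replicates 2 and 1. The mix was thus close to the same in both animals. By contrast it depended on the kind of table: in the index-based tables exon 1A held 19.1% in replicate 2 and 22.3% in replicate 1, and Gs-alpha 78.1% and 75.4%. Most of the exon 1A share there was Gnas-218, a processed transcript of 607 bases, at 16.9% and 18.8% of Gnas TPM in replicates 2 and 1, while the alignment-based tables gave it 0.63% and 0%. Whether exon 1A RNA is a minor or a sizeable share of Gnas RNA therefore cannot be read from these tables, whereas Gs-alpha was highest in both.

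The promoters of these 2 first exons are shown because the tables disagree on exon 1A. Both are RefSeq windows of 300 bases, plus strand, GRCm38.p6, at chr2:174329756-174330055 for Gs-alpha and chr2:174327499-174327798 for exon 1A, and capitals mark CG dinucleotides, of which they hold 40 and 27.
Gs-alpha promoter: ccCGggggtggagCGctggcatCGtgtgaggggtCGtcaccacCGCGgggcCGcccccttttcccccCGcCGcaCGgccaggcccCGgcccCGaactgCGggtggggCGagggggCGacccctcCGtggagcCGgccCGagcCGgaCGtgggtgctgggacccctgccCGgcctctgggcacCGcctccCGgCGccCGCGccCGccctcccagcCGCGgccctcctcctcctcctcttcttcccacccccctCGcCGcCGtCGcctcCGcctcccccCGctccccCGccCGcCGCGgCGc
Exon 1A promoter: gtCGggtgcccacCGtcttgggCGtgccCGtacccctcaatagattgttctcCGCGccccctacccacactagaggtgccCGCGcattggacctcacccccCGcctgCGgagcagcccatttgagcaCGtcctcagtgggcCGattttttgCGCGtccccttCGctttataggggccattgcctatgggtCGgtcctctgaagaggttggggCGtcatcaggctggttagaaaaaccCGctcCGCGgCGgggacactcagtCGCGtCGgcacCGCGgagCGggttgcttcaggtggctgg
Over the 50 windows of the listed genes the median was 15 CG dinucleotides, and over all 32851 promoter windows it was 7. The hexamer TGCCGC, the letters known to be bound by Zfp57 when methylated, was found on either strand in 14 of the 50 windows and in 11.6% of all windows. Neither Gnas window shown holds it. The 14 windows belong to 13 genes, since 2 overlapping windows of Mest both hold the hexamer. The hexamer itself holds a CG, and the windows of the listed genes have more CG dinucleotides, so the shares are not like for like. The windows cover 35 of the 42 genes.

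**Figure D3:**
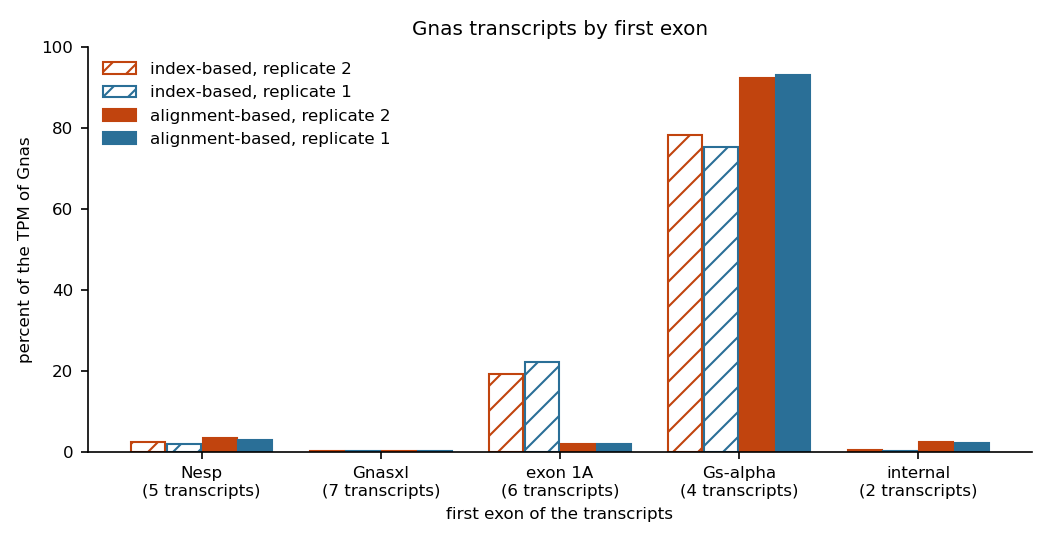
Percent of the TPM of Gnas held by transcripts grouped by first exon, with index-based tables as hatched bars and alignment-based tables as filled bars, each with replicate 2 in red left of replicate 1 in blue. Gs-alpha is highest in all 4, at 75.4% to 93.0%, and exon 1A stands at 19.1% and 22.3% in the index-based tables but at 1.95% and 1.98% in the alignment-based ones.

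In the Cdkn1c-Kcnq1ot1 cluster on chromosome 7, the level of Cdkn1c (chr7:143458339-143461050, minus strand) rested on 16740 expected counts in replicate 2 and 17241 in replicate 1, with a log2 ratio of 0.10. Kcnq1ot1 (chr7:143203458-143296549, minus strand), the paternal noncoding RNA that silences the cluster in cis, had 1.5 TPM in replicate 2 and 0.89 TPM in replicate 1. Those low TPM values stand for 4607 and 3225 expected counts, since the annotated RNA is 93092 bases long. Its log2 ratio was 0.66, and its TPM bounds did not overlap between the animals. Kcnq1, the potassium channel gene it overlaps on the other strand, had 132 and 143 expected counts in replicates 2 and 1. Per length, Cdkn1c stood at 243 times Kcnq1ot1 in replicate 2 and 358 times in replicate 1. Phlda2, a placental growth restrainer, had 1.70 and 1.25 TPM (37 and 32 expected counts), and Ascl2, a transcription factor of the placenta, had 0.42 and 0.26 TPM (21 and 15 expected counts) in replicates 2 and 1. For both, the counting interval of the log2 ratio took in 0.

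The Igf2-H19 cluster, also on chromosome 7, was low in both adult glands. Igf2 (chr7:142650766-142666816, minus strand), the fetal insulin-like growth factor, had 6.20 TPM (374 expected counts) in replicate 2 and 7.54 TPM (556 expected counts) in replicate 1, and its TPM bounds overlapped. H19 (chr7:142575529-142578143, minus strand), the maternal noncoding RNA that shares its enhancers, had 0.77 and 0.69 TPM (44 and 52 expected counts). H19 thus stood at 0.124 times the TPM of Igf2 in replicate 2 and 0.0915 times in replicate 1. Which Igf2 transcript was highest depended on the animal: the processed transcript Igf2-208 held 38.0% in replicate 2 and 19.3% in replicate 1, and Igf2-207 held 14.3% and 29.8%, from fewer than 70 expected counts each. Igf2r (chr17:12682406-12769664, minus strand), the receptor that clears Igf2, was higher per length than its ligand, at 29.2 and 26.1 TPM in replicates 2 and 1. Its paternal antisense RNA Airn (chr17:12741311-12860136, plus strand) had 2.07 and 2.46 TPM from 65 and 79 expected counts. How strand entered the counting is not stated, so reads of Airn and of the introns of Igf2r may not have been kept apart.

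In the Snrpn cluster on chromosome 7, levels fell into 3 steps. Ube3a had 61.9 and 59.1 TPM in replicates 2 and 1, Ndn, a growth suppressor of neurons, had 25.9 and 29.9 TPM, and Snrpn, a splicing protein, had 12.6 and 14.3 TPM. Magel2, a partner of ubiquitin ligases, had 0.66 and 0.69 TPM, and Mkrn3, a ring finger protein known to hold back puberty in humans, had 0.46 and 0.44 TPM. All 5 had log2 ratios below 0, Ube3a (-0.12) as well as the paternally expressed Ndn (-0.30), Snrpn (-0.27), Magel2 (-0.16) and Mkrn3 (-0.038). Ube3a is classed as maternally expressed, but its imprint is among those known only in some tissues or transcripts. The counting intervals of Magel2 and Mkrn3 took in 0, and with TPM as deposited Ube3a and Mkrn3 (0.063) lay above 0. For Snrpn the tables named different transcripts: the alignment-based ones gave all of its TPM to Snrpn-201 and the index-based ones all of it to Snrpn-202, in both animals. Snurf, a short reading frame carried by the same messenger RNA, was listed at 35.6 and 35.5 TPM in the gene table and at 0 in the index-based tables, so its reads and those of Snrpn cannot be told apart here.

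In the Peg3 cluster on chromosome 7, Peg3, a zinc finger protein, had 11.9 and 12.3 TPM (2734 and 3760 expected counts) in replicates 2 and 1. Usp29, a deubiquitinase read from the same control region in the other direction, had 0.54 and 0.59 TPM (76 and 87 expected counts), and Zim1, a zinc finger gene known as maternal, had 1.03 and 0.85 TPM (107 and 140 expected counts). The Peg3 window, chr7:6730370-6730669 on the minus strand, shares 263 bases with that of Usp29 and is shown for the element that both hold, which is in capitals.
Peg3 promoter: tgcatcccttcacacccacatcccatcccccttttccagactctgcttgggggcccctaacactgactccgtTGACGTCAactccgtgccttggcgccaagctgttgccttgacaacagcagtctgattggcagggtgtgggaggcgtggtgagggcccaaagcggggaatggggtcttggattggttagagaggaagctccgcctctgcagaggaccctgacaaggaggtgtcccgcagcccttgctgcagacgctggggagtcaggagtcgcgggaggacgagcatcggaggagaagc
Despite the shared start, Peg3 stood at 22.1 times the TPM of Usp29 in replicate 2 and 20.8 times in replicate 1. Those ratios were 16.2 and 11.3 in the index-based tables.

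In the Peg10-Sgce cluster on chromosome 6, Peg10 had 30055 and 40833 expected counts in replicates 2 and 1 and a log2 ratio of -0.30. Sgce, a sarcoglycan read from the same control region in the other direction, had 25.6 and 25.4 TPM. Asb4, a substrate adaptor of ubiquitin ligases known as maternal, had 8 expected counts (0.09 TPM) in replicate 2 and 50 (0.53 TPM) in replicate 1. Its log2 ratio of -2.43 (counting interval -3.51 to -1.35) was the lowest of all listed genes that averaged at least 10 counts, but its mean count is under the 100 set for a call. Peg10 was given to different transcripts by the tables, 98.7% and 97.01% to Peg10-203 in the alignment-based ones and 99.8% and 99.7% to Peg10-202 in the index-based ones for replicates 2 and 1. The 2 annotated transcripts differ in length by 100 bases.

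The remaining genes with values not yet given lay between 0.92 and 27.2 TPM in either animal, apart from Slc22a2. Grb10, an adaptor that restrains insulin signalling, had 25.3 and 22.1 TPM in replicates 2 and 1, and Trappc9, a trafficking factor, had 21.6 and 21.1 TPM. Between 9 and 17 TPM in both animals stood Mest, a hydrolase-like protein, Zrsr1, a splicing factor retrocopy, Nap1l5, a histone chaperone retrocopy, Mcts2, a translation factor retrocopy, and Rasgrf1, an exchange factor for Ras. Inpp5f, an inositol phosphatase, had 9.85 and 7.49 TPM. Zdbf2, a regulator of feeding and growth, Plagl1, a zinc finger growth suppressor, and Airn lay between 2 and 3 TPM. Slc22a2, an organic cation transporter, had 0 expected counts in replicate 2 and 2 in replicate 1, under the limit of 3 counts, which stands for 0.0457 TPM in replicate 2 and 0.0368 TPM in replicate 1, so no fold is given. Of the retrocopies, Zrsr1 was above its source and the other two below their relatives. Zrsr1 had 13.9 and 13.3 TPM in replicates 2 and 1, against 7.12 and 6.78 TPM for Zrsr2. Mcts2 had 12.2 and 10.5 TPM, against 30.5 and 27.3 TPM for Mcts1, and Nap1l5 had 11.1 and 12.7 TPM, against 41.2 and 49.2 TPM for Nap1l1. Reads shared between such near copies could be split either way by the estimates.

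Between the animals, a gene was counted as different when it passed 2-fold, averaged at least 100 expected counts and had TPM bounds that did not overlap. None of the 34 listed genes at that count was different by this rule, while 1.19% of all 12645 genes at that count were (151 genes, 0.498% higher in replicate 2 and 0.696% lower). No gene of the list was different under DESeq2, spike-in or TPM scaling either. Without regard to fold, the TPM bounds lay apart for 16 of the 34, against 27.4% of all genes at that count. They were higher in replicate 2 for 11 of the 34 (18.1% of all genes) and lower for 5 (9.31% of all genes). The bounds are of TPM as deposited, whereas the fold is of TMM-scaled counts. Blcap and Peg13 were among the 11 but had log2 ratios of -0.098 and -0.014 after TMM scaling. Bounds narrow with depth, and the median count was 2277 among the 34 and 924.5 among all genes at that count, so the shares are not like for like. The median absolute log2 ratio was 0.19 for the 34 and 0.15 for all genes.

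Of the 41 listed genes that averaged at least 10 counts, 15 had log2 ratios above 0 and 26 below 0, with a median of -0.064, and over all genes 49% lay above 0. By class, 9 maternally expressed genes were above 0 and 6 below, and 4 paternally expressed genes were above and 18 below. The split depends on the scaling: with TPM as deposited 25 of the 41 lay above 0 and 16 below, among them 13 maternally expressed genes above and 2 below, and 9 paternally expressed genes above and 13 below. On that scale 62.8% of all genes lay above 0, with a median shift of 0.091 per gene. Dlk1 was among the 10 genes that changed sign. Meg3, Rian, Mirg, Kcnq1ot1, Gnas, Peg10, Nnat, Slc22a3, Asb4 and Cdkn1c kept theirs under each scaling and in the index-based tables.

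**Figure D4:**
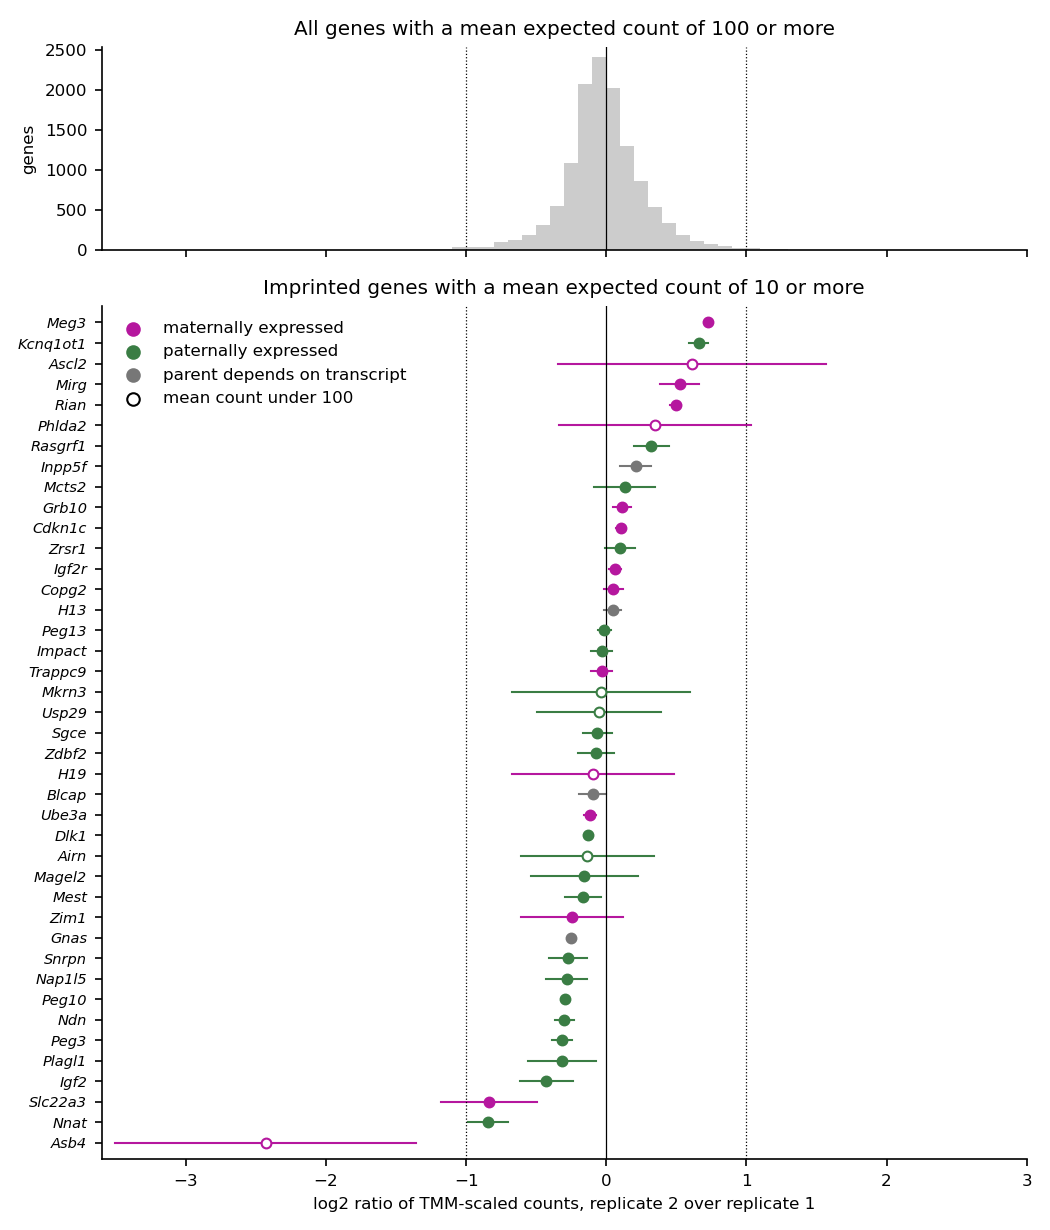
Lower panel: log2 ratio of TMM-scaled expected counts, replicate 2 over replicate 1, for the 41 imprinted genes that averaged at least 10 counts, coloured by class, with lines for the 95% counting interval and open circles for a mean count under 100. Upper panel: the number of genes in bins of the same ratio over all 12645 genes that averaged at least 100 counts, with dotted lines at 2-fold; Meg3 at 0.73 and Nnat at -0.85 stand at opposite ends of the filled circles, and Asb4 at -2.43 rests on 8 and 50 counts.

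At 1.5-fold, 4 of the 34 listed genes passed, against 5.02% of all genes: Meg3 and Kcnq1ot1 higher in replicate 2, Nnat and Slc22a3 lower. These were named after their values were seen. Nnat, a small membrane protein of neuroendocrine cells and fat that is paternally expressed from an intron of Blcap, had 16.5 TPM (576 expected counts) in replicate 2 and 27.2 TPM (1144 expected counts) in replicate 1. Its log2 ratio was -0.85, with TPM bounds apart. Blcap itself had a log2 ratio of -0.10, and Nnat stood at 0.515 times the TPM of Blcap in replicate 2 and 0.975 times in replicate 1. Slc22a3, a transporter of monoamines, had 0.92 TPM (103 expected counts) in replicate 2 and 1.54 TPM (204 expected counts) in replicate 1, with a log2 ratio of -0.84.

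Markers of other cell types differed between the glands as well. Of the marker lists, that of the steroid-producing cortex had the highest summed level, 27010 TPM in replicate 2 and 25839 TPM in replicate 1. All 7 cortex markers were above 1 TPM. Summed TPM does not measure the share of a tissue. The median log2 ratio of the cortex markers was 0.035, with 4 above 0 and 3 below, and none was different by the 2-fold rule. Zona glomerulosa markers summed to 1096 and 1023 TPM, with 3 of 7 above 0 and 4 below. Chromaffin markers summed to 1940 TPM in replicate 2 and 2158 TPM in replicate 1, and all 7 had log2 ratios below 0 (median -0.30). Adipocyte markers summed to 728 TPM in replicate 2 and 1433 TPM in replicate 1, all 7 were below 0 (median -1.05), and 5 of 7 were lower by the 2-fold rule, among them Ucp1, Cidea and Fabp4.

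Smooth muscle markers were below 0 in 5 of 5, at summed levels of 49.5 and 72.0 TPM in replicates 2 and 1, with 2 lower by the rule. Capsule and fibroblast markers were below 0 in 7 of 8, at 116 and 167 TPM, with 1 lower by the rule, and endothelial markers in 6 of 6, at 197 and 205 TPM, with 0 past it. Schwann and sustentacular markers were below 0 in 3 of 5, at 11.1 and 12.7 TPM, with S100b lower by the rule, and neuron markers in 4 of 5, at 23.3 and 25.7 TPM, with 0 past it. In both animals 3 of the 5 smooth muscle and 3 of the 5 Schwann and sustentacular markers reached 1 TPM, as did every marker of the other lists, and none was listed at 0 in both. The part of fat, medulla and stroma in the lower values of Nnat, Slc22a3, Asb4, Ndn, Peg3 and Peg10 was not tested, and in whole glands fewer cells of a type and less RNA per cell cannot be told apart.

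Partners of the listed genes were read from whole lists. Of 16 genes of IGF and insulin signalling, 12 reached 1 TPM in both libraries and 0 of the 12 that averaged at least 100 counts were different between the animals; 3 lay above 0 and 11 below, with a median log2 ratio of -0.26. The highest were Igfbp7, a secreted binding protein, at 190 and 220 TPM in replicates 2 and 1, M6pr, the smaller mannose phosphate receptor, at 62.6 and 59.3 TPM, and Insr, the insulin receptor, at 60.3 and 60.1 TPM. Igf1r, through which Igf2 signals, had 38.4 and 47.7 TPM. Of 15 cell cycle partners of Cdkn1c, 13 reached 1 TPM in both, and of 14 that averaged at least 100 counts 1 was lower, Ccne1 with 75 and 173 expected counts, and 0 higher. The highest were the D cyclins Ccnd2, at 188 and 197 TPM, and Ccnd3, at 173 and 183 TPM, and the kinase Cdk4, at 81.5 and 75.5 TPM. Cdkn1c, at 364 and 318 TPM, was above every one of the 15 in both animals.

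Genes that keep imprints and silence chromatin were expressed in part. Of 16, 11 reached 1 TPM in both libraries and 0 of 11 at the count minimum were different between the animals. Trim28, the corepressor that Zfp57 and Zfp445 recruit, was highest at 89.2 and 77.2 TPM in replicates 2 and 1, followed by Ehmt2, a histone methyltransferase, at 60.9 and 51.0 TPM, and Zfp445 at 56.5 and 45.4 TPM. Zfp57, named here for its role, had 1.05 and 0.78 TPM. Of 16 further imprinted genes outside the 42, 8 reached 1 TPM in both and 0 of 7 were different. The highest of them were Nap1l4 with 44.3 and 45.4 TPM, Ppp1r9a with 19.9 and 17.7 TPM and Osbpl5 with 13.8 and 13.4 TPM. Dio3, the enzyme that inactivates thyroid hormone at the far end of the Dlk1 cluster, had 20 and 4 expected counts in replicates 2 and 1, under the count minimum.

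Many of the listed genes lie over another gene: 26 of 42 overlap one that is not a small RNA, and 21 overlap one on the other strand. Of 9 hosts and overlapping genes, all 9 reached 1 TPM in both libraries, 5 lay above 0 and 4 below in log2 ratio and 0 were different, and of 12 source genes and near paralogues 9 reached 1 TPM, 3 lay above 0 and 8 below, and 0 of 10 were different. Without knowing whether the counting used strand, values of genes that overlap on opposite strands, such as Nnat in Blcap and Kcnq1ot1 in Kcnq1, are uncertain to the extent that reads were shared. Peg13 in Trappc9 and Mcts2 in H13 lie on the strand of their host, where strand would not part the reads. Mest and Copg2 overlap tail to tail on opposite strands, with Mest at 16.5 and 16.9 TPM and Copg2 at 37.6 and 34.2 TPM in replicates 2 and 1. Noncoding RNAs in the clusters, 7 of the 42, had a median log2 ratio of 0.49 with 4 above 0 and 3 below (Peg13, Airn and H19). The nuclear noncoding RNAs outside the clusters had a median log2 ratio of 0.25, and Neat1 was higher by the 2-fold rule.

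The effect of how reads were assigned differed from gene to gene. Of 34 listed genes that averaged at least 1 TPM, 0 differed by 2-fold in both libraries between the index-based and alignment-based tables, against 4.31% of all 13766 such genes. Among protein-coding genes alone it was 107 of 12331, and 28 of the 34 listed genes counted as coding. At so low a share, 0 among 34 does not set the listed genes apart. The median ratio of index-based over alignment-based TPM was 0.852 for the listed genes and 0.869 for all genes. Mest was the lowest, at 0.576 times in replicate 2 and 0.648 times in replicate 1, and Impact was high in both animals at 1.32 and 1.34 times. Airn stood at 1.46 times in replicate 2 and 0.980 times in replicate 1 from fewer than 100 counts. Zrsr1 had 1308 and 1350 expected counts in the alignment-based tables but 1849 and 3028 in the index-based ones for replicates 2 and 1, so that its log2 ratio of 0.10 became -0.60. Zrsr1 lies within Commd1 and the overlapping model Gm28048, on the other strand from both.

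**Figure D5:**
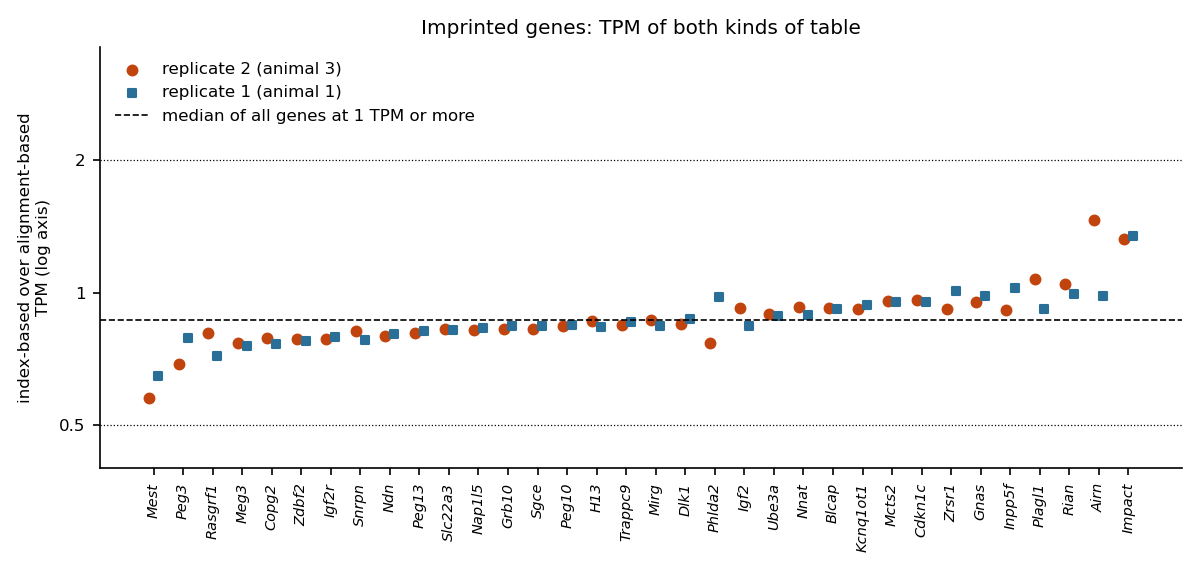
Ratio of index-based over alignment-based TPM on a log axis for the 34 imprinted genes that averaged at least 1 TPM, ordered by the mean ratio, with replicate 2 as red circles left of replicate 1 as blue squares. All points lie between the dotted lines at 0.5 and 2, with Mest lowest, Airn in replicate 2 and Impact highest, and the dashed line marks the median of all such genes, 0.869.

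Shares of transcripts within a gene depended on the table or the animal in some genes. For 16 listed genes whose imprint or structure depends on the transcript, both kinds of table agreed on the highest transcript for 13 and both animals for 14. Grb10-201 held 91.0 ± 1.4% of Grb10 TPM (SD, n = 2) in the alignment-based tables and 78.2% in the index-based ones. H13-202 held 72.0 ± 0.3% of H13, and Peg3-201 held 79.8 ± 7.3% of Peg3. Dlk1-205 held 41.3 ± 2.1% of Dlk1 and Meg3-205 27.0 ± 2.9% of Meg3. For Blcap the alignment-based tables put Blcap-202 first (79.2 ± 15.2%) and the index-based ones Blcap-201 (39.0%), and Igf2, Snrpn and Blcap were the 3 of these 16 whose highest transcript differed between the tables. Peg10, described above, was not among the 16.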

How the data were processed

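Adrenal total RNA of 2 animals was sequenced with spike-ins added. Per the submitters' processing notes, reads were mapped to mm10 with the GENCODE M21 annotation; not given in the sources used here are the programs, the strand setting of the counting and the handling of Cast reads. Per the file headers, the alignment-based tables hold the authors' expected counts, TPM, FPKM, the percent of a gene held by each transcript, and lower and upper TPM bounds, read here as a signal range. The index-based tables hold the authors' estimated counts and TPM per transcript, summed here per gene.

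The members, their classes and all lists were chosen with earlier results of these data known. Expected counts were rounded and scaled by TMM over all genes (edgeR 4.0.16, R 4.3.3), with 0.5 added before log2. With 1 library on each side no test across genes was possible; calls follow fold, count and bounds as given above, and counting intervals are at 95%. DESeq2 1.42.0 size factors, spike-in counts, TPM, other minimums, each library alone and the index-based tables were the alternatives. The ratio steps were tested on simulated data. The libraries were kept as separate samples on their animal numbers. Their counts differed by far more than sampling noise (chi-square per gene 45.2), a value that cannot tell 2 animals from 2 preparations of 1 animal. Spike-ins held 0.245% and 0.226% and mitochondrial genes 9.20% and 11.4% of expected counts in replicates 2 and 1. For 5 genes, Gnas, Peg10, Plagl1, H19 and Slc22a2, the deposited TPM lay outside its own bounds in a library.

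Values in each library were given by rule for the 12 highest genes, those at or under the limit of 3 counts, those past a fold and the named clusters; other members and partners singled out were chosen after their values were seen. Python 3.11.15 with pandas 2.3.3, numpy 2.4.6, scipy 1.17.1 and matplotlib 3.10.9 was used. Sequences are from RefSeq tables.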

Additional observations from a re-analysis of the deposited data

How the results depend on the processing

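The median level of the 42 genes, 13.1 TPM, was 23.6 TPM over the 32 genes at 1 TPM or more, 12.6 as FPKM, 10.9 TPM in the index-based tables and 34.5 TPM when rescaled over nuclear protein-coding genes and lincRNAs; with 1 replicate left out it was 13.015 to 13.2 TPM. The number of genes at 1 TPM, 32, was 39 with the same rescaling, 33 in the index-based tables and 33 to 34 from a single replicate. It was 38 at a limit of 0.5 TPM, 28 at 5 TPM and 40 at 10 or more expected counts in both. The maternal minus paternal difference of 0.50 became 1.09 without genes of limited imprint and 1.16 over genes at 1 TPM or more, and 0.35 to 0.66 from a single replicate. The Meg3 to Dlk1 ratio of 1.06 became 1.46 in expected counts, which are not per length, and 0.785 to 1.33 from a single replicate. The count of 0 genes past 2-fold between animals became 1 (Asb4) with a mean count of 10 or with no minimum, 4 at 1.5-fold and 16 with TPM bounds apart at any fold, a setting chosen after seeing the data. The median log2 ratio of -0.064 was 0.063 with TPM as deposited, where the median shift over all genes was 0.091. Between the kinds of table, 0 genes past 2-fold became 1 (Mest) at 1.5-fold. Of the ratios of single genes, 184 of 210 settings moved the value by less than the distance from the ratio to the end of its counting interval. The other 26 moved it by more, most of them with TPM as deposited and the rest in the index-based tables or with spike-in scaling. The cause was not tested. No paired analysis was possible because both libraries belong to 1 group. Genes under 100 expected counts, such as Airn, H19, Phlda2, Usp29, Mkrn3, Ascl2, Asb4 and Slc22a2, are limited by depth.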
